A study of Mus musculus with 25 samples.

Results

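The genes of the integrated stress response that depend on the transcription factor ATF4 were examined in mouse liver. The set holds 10 genes listed by name, with no cutoff on a measured value, although earlier results of these data were known when the list was made: Atf4, Atf5, Atf3, Ddit3, Trib3, Asns, Chac1, Sesn2, Ppp1r15a and Psat1. Each of the 10 was found in the files by its Ensembl identifier, out of 41388 identifiers in all, and each of the 10 passed the filter on low counts that left 14065 genes for testing. Liver RNA of 25 male C57B/6J mice, each aged 20 weeks and each giving 1 library, was sequenced after poly-A selection. Every mouse was homozygous for a loxP-flanked Sirt1 allele. Mice labelled WT carried no Cre, and mice labelled LKO also carried Albumin-cre, which the study used to delete Sirt1 in hepatocytes. Every mouse had also received an AAV8 virus driven by the hepatocyte promoter of thyroxine binding globulin, which carried NAMPT or, as the control, no insert (empty vector, EV). NAMPT turns nicotinamide into nicotinamide mononucleotide and so feeds the synthesis of NAD. The chow group held 3 WT mice with EV, and the groups on Western diet (WD) held 6 WT mice with each virus and 5 LKO mice with each virus. The design asks which changes come with the diet, which come with NAMPT, and which NAMPT changes differ in mice without hepatocyte SIRT1, an NAD-dependent deacetylase.

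The integrated stress response starts when a kinase that senses unfolded protein, missing amino acids, missing heme or viral RNA phosphorylates the translation factor eIF2 alpha. General protein synthesis then falls, while the Atf4 messenger RNA is translated better, because short reading frames ahead of its coding sequence stop capturing the ribosomes. ATF4 protein, usually as a pair with a C/EBP factor, then turns on genes for amino acid synthesis, amino acid uptake and stress signaling, and in liver one of its known outputs is the hormone FGF21. ATF4 is therefore set largely at translation, and RNA counts report its targets more directly than its own activity.

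The members have different tasks in that response. Atf4 (ENSMUSG00000042406), Atf5, Atf3 and Ddit3 encode bZIP transcription factors, and the product of Ddit3 is CHOP, which promotes cell death under lasting stress. Trib3 encodes a pseudokinase that binds ATF4 and AKT and dampens both. Ppp1r15a encodes GADD34, which brings a phosphatase back to eIF2 alpha and ends the signal, and Sesn2 encodes a leucine sensor that restrains mTORC1. Chac1 encodes an enzyme that breaks down glutathione, Asns encodes asparagine synthetase, and Psat1 encodes an enzyme of serine synthesis.

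The promoters of the members are shown first, because ATF4 and its partners read a short element that is written out in several of them. RefSeq promoter windows on GRCm38.p6, 250 bases before to 50 bases after each annotated start, were found for 10 of 10 members. Atf5 and Psat1 have 2 windows each, which makes 12. Windows were searched on both strands for the C/EBP-ATF response element (CARE, TGATGNAA), for the core of the cyclic AMP response element (CRE core, TGACGT), and for the endoplasmic reticulum stress element (ERSE, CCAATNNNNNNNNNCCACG). The 30 bases around each match that was shown are given 5′ to 3′ on the strand of the gene, with the match in capitals:
Atf3 CARE (chr1:191183425-191183454, minus strand): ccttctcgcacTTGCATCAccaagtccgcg
Atf3 CRE core (chr1:191183324-191183353, minus strand): attaatagcattACGTCAgcctgggattgg
Trib3 CARE (chr2:152344028-152344057, minus strand): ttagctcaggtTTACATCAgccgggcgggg
Asns CARE (chr6:7693214-7693243, minus strand): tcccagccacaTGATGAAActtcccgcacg
Chac1 CARE (chr2:119351038-119351067, plus strand): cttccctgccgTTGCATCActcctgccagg
Ppp1r15a CRE core (chr7:45526263-45526292, minus strand): ccgcctctccggTGACGTcagcacagcgcc

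A CARE match was present in 4 of 10 members, against 3.97% of 32851 windows of the same length. It lay from 110 to 103 bases before the start in Atf3, from 23 to 16 bases before it in Asns and from 193 to 186 bases before it in Chac1. In Trib3 it lay after the start, at bases 15 to 22. The CRE core was present in Atf3, from 8 to 3 bases before the start, and in Ppp1r15a, from 12 to 7 bases before it. The Ppp1r15a match is a palindrome and was also read on the other strand from 10 to 5 bases before the start, overlapping the first. The background for the CRE core was 7.51% of windows. The ERSE was found in 0 members and in 0.119% of all windows. No CARE or CRE core letters were in the windows of Atf4, Atf5, Ddit3, Sesn2 and Psat1, which says nothing about elements outside these windows.

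Atf3 was the member with both elements, and its 250 bases before the start (chr1:191183334-191183583, minus strand, GRCm38.p6) are shown whole because they hold both the CARE and, close to the start, the CRE core, each in capitals:
Atf3: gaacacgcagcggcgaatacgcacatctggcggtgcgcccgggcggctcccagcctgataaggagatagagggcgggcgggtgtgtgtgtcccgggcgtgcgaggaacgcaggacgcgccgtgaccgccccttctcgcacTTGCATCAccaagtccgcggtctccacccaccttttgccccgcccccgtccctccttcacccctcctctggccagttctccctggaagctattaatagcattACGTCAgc
The same stretch of Chac1 (chr2:119350992-119351241, plus strand) is given for comparison, since Chac1 carries the same 8 CARE letters as Atf3 but passed the test for the diet and did not pass it for NAMPT:
Chac1: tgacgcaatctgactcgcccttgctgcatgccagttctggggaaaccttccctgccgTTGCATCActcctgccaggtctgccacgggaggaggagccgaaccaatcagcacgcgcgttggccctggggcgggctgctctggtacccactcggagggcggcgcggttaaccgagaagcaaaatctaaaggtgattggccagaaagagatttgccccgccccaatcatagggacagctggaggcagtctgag

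Libraries held between 20166175 and 32937326 gene counts. Values below are CPM, the counts of a gene relative to the TMM-scaled size of its library, with the SD between mice, and fold changes are those of a limma fit over the 14065 genes, given as log2 with their SE. A gene was called at a Benjamini-Hochberg adjusted p of 0.05 or less over all genes tested. Whole-gene Sirt1 did not pass the test between LKO and WT with either virus. It was at 8.57 ± 1.34 CPM in LKO EV and 9.82 ± 1.36 CPM in LKO NAMPT (SD, n = 5 each), and at 8.86 ± 0.57 CPM in WD WT EV and 8.58 ± 0.62 CPM in WD WT NAMPT (SD, n = 6 each), so directions drawn from these libraries rest on their labels. Nampt was at 59.5 ± 10.6 CPM (SD, n = 6) in WD WT NAMPT and at 47.4 ± 6.46 CPM (SD, n = 6) in WD WT EV, with an adjusted p of 0.144 in limma. In LKO it was at 79.9 ± 28.4 CPM with NAMPT and 56.1 ± 12 CPM with EV (SD, n = 5 each, adjusted p 0.403 in limma), and LKO NAMPT against WT NAMPT had an adjusted p of 0.306. The hepatocyte marker Alb ran from 31300 to 54100 CPM over all groups. In bulk liver, a lower value can mean fewer cells of a type or less RNA per cell, and these cannot be told apart.

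Levels differed widely between members. Per kilobase of exon, Atf5 was the highest in each of the 5 groups, from 113 CPM per kb in chow WT EV to 154 in WD WT NAMPT, and Atf4 came next, from 36.0 in WD LKO NAMPT to 58.8 in chow WT EV. Trib3, Sesn2, Ppp1r15a, Ddit3, Chac1 and Atf3 lay between 0.576 and 7.24 CPM per kb in their group means. Asns and Psat1 were the lowest in the WD groups, at 0.0891 to 0.981 and 0.176 to 0.910 CPM per kb. Asns was down to 2 counts in 2 of the LKO EV libraries, so its values there are close to the limit of counting.

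**Figure D1:**
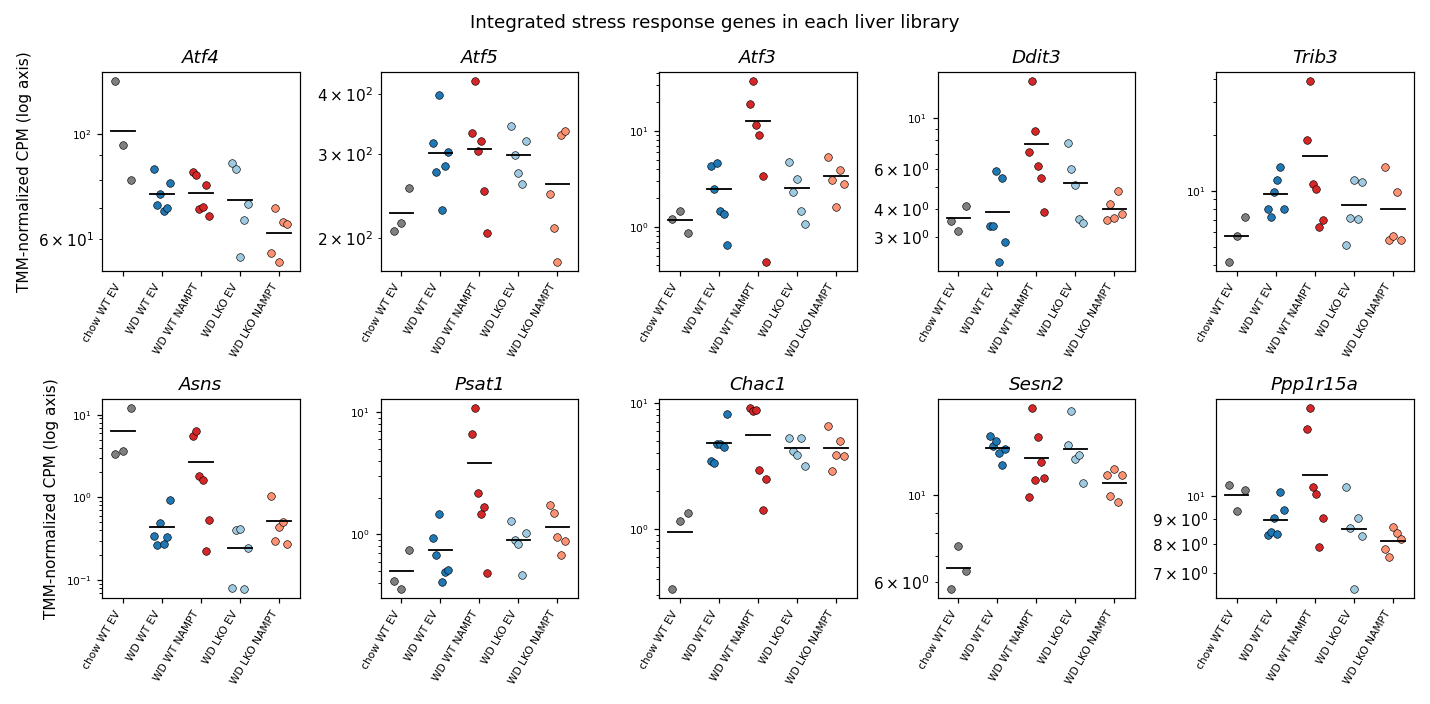
TMM-normalized CPM (log axis) of the 10 members in each of the 25 liver libraries, with a bar at the mean of each of the 5 groups. Red points (WD WT NAMPT) spread over the widest range for Atf3, from 0.431 to 33.1 CPM, and Asns lies highest in chow WT EV (grey).

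The plot of levels by library shows members that differed between chow and Western diet, and members that were higher in some but not all of the WT NAMPT mice. Asns was among both. The diet was examined first, in WT mice with the empty vector. Of the 10 members 5 passed the test, with Asns and Atf4 lower and Chac1, Sesn2 and Atf5 higher than on chow. Of all genes tested, 22% were called in this comparison, 10.1% higher and 12% lower.

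Among the factors, Atf4 RNA was 129, 94.7 and 80.0 CPM in the 3 chow livers, and 68.7 to 84.3 CPM (median 72.9) in the 6 WD WT EV livers. The lowest chow mouse thus fell inside the WD range. The log2 change was -0.49 ± 0.12 (SE), with an adjusted p of 0.00546 in limma. Atf5 went the other way, with 207, 215 and 255 CPM on chow and 229 to 399 CPM (median 293) on Western diet. Its groups overlapped too, and its log2 change was 0.44 ± 0.15 (SE), adjusted p 0.033 in limma. The Atf5 call was lost in 7 of 11 alternative fits to the same libraries, among them both edgeR tests (adjusted p 0.22 and 0.233) and DESeq2 (0.178). In these 11 fits the Atf4 call was lost in 2 and that of Chac1 in 1 (adjusted p 0.0601 in limma without quality weights). Asns and Sesn2 were called in all 11. Atf3 (0.75 ± 0.88, SE, adjusted p 0.578 in limma) and Ddit3 (0.06 ± 0.28, SE, adjusted p 0.899 in limma) did not pass the test.

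The enzyme Asns showed the largest difference of the set. Asns was 3.35, 3.69 and 12.0 CPM on chow and 0.264 to 0.924 CPM (median 0.334) on Western diet, so that every WD WT EV liver was below every chow liver. The fitted level was 11-fold lower on Western diet (log2 change -3.45 ± 0.67, SE, adjusted p 0.000765 in limma). Psat1, of the neighboring serine pathway, was at 0.506 ± 0.21 CPM (SD, n = 3) on chow and 0.748 ± 0.40 CPM (SD, n = 6) on Western diet, and did not pass (adjusted p 0.499 in limma).

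The glutathione enzyme Chac1 moved opposite to Asns. It was 0.331, 1.16 and 1.34 CPM on chow and 3.32 to 8.22 CPM (median 4.57) on Western diet, again without overlap. The log2 change was 2.49 ± 0.66 (SE), which is 5.63-fold, with an adjusted p of 0.00852 in limma. Sesn2 was 5.75, 6.39 and 7.39 CPM on chow and 11.9 to 14.1 CPM (median 13.2) on Western diet. It rose 2-fold, by 1.0 ± 0.13 (SE) on the log2 scale, with an adjusted p of 1.22e-05 in limma. Thus 3 members (Asns, Chac1 and Sesn2) had groups that did not overlap, against 16.1% of all genes tested. Trib3 was at 5.70 ± 1.56 CPM (SD, n = 3) on chow and 9.66 ± 2.43 CPM (SD, n = 6) on Western diet, with an adjusted p of 0.122 in limma. Ppp1r15a was at 9.35 to 10.5 CPM on chow and 8.98 ± 0.75 CPM (SD, n = 6) on Western diet, with an adjusted p of 0.395 in limma.

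The chow group holds 3 mice, and 3 of the 5 calls rest on single chow livers. Without chow WT EV replicate 1 the adjusted p in limma became 0.372 for Atf4, 0.382 for Atf5 and 0.198 for Chac1, and without replicate 2 it became 0.111, 0.379 and 0.147. Without replicate 1 the log2 change was -0.24 for Atf4, 1.75 for Chac1 and -4.18 for Asns, and it was -4.08 for Asns without replicate 2. Replicate 3, which had the 12.0 CPM of Asns, stood apart with a summed level of immediate early genes of 467 CPM, against 230 and 131 in replicates 1 and 2, and with the lowest quality weight (0.608, against 1.8 and 2.5). Without it the log2 change of Asns was -3.21, and the same 5 members were called. Atf5 also lost its call without WD WT EV replicate 1 (0.0644) or replicate 4 (0.0844), while Asns and Sesn2 kept theirs in each of these fits. Cell type markers moved with the diet as well. In limma 2 of 8 macrophage markers (Cd68 and Cd5l), 2 of 7 stellate cell markers (Lrat and Col3a1) and 1 of 5 lymphocyte markers (Nkg7) were called higher, 1 of 6 hepatocyte markers (Cps1) lower, and of 6 endothelial markers Lyve1 and Kdr were called, 1 higher and 1 lower. The macrophage sum was 249, 222 and 281 CPM on chow and 275 to 408 CPM in WD WT EV. Their part in the diet comparison was not tested. Of 12 clock genes, 10 were called between the same groups, and a score over them ran from -2.15 to -1.34 on chow and from -0.64 to 0.76 in WD WT EV. With that score as a covariate Asns, Chac1, Sesn2 and Atf5 were called, and Atf4 was not (log2 change -0.17, adjusted p 0.499 in limma). The labels give no hour of tissue collection. The score did not overlap between the chow and WD WT EV groups, so that fit cannot separate the clock genes from the diet. Their part in the diet comparison was not tested.

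Of 77 other genes kept from 7 lists of the response, 10 were higher and 7 lower on Western diet, which is 22.1% against 22% of all genes, and the median log2 change was -0.01, next to 0.00 for all genes. The edgeR quasi-likelihood test called 9 of the 77, the exact test 11 and DESeq2 10, and the genes named next are the limma calls. Among partners of ATF4 and other regulators, 2 of 11 rose, Cebpb by 1.02 ± 0.20 (SE) and the translation repressor gene Eif4ebp1 by 0.44 ± 0.11 (SE) on the log2 scale. In amino acid synthesis, 2 of 11 rose (Aldh18a1 and Gpt2) and 2 fell, including Cth, the last enzyme of cysteine synthesis, whose level was 742 ± 248 CPM (SD, n = 3) on chow and 189 ± 59.5 CPM (SD, n = 6) in WD livers. Among amino acid transporters, 2 of 9 rose, with the glycine transporter gene Slc6a9 at 9.55 to 10.6 CPM on chow and 20.3 to 30.8 CPM on Western diet, and Slc1a5 and Slc38a2 fell. Of 14 genes for aminoacyl-tRNA synthetases and tRNA export, Cars and Xpot rose and Eprs fell. Of 16 genes for the kinases and the eIF2 machinery, 0 were called in limma, with 1 at an unadjusted p under 0.05, and 0 were called by edgeR or DESeq2. In the ATF6 and XBP1 arms of the unfolded protein response, Herpud1 and Atf6 rose and Hsp90b1 and Calr fell, out of 13.

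Fgf21, the secreted output of the response that the study follows, was 0.331, 0.356 and 0.158 CPM on chow and 0.370 to 14.5 CPM in WD WT EV. Those groups did not overlap, and the adjusted p was 0.0733 in limma (log2 change 3.41 ± 1.36, SE). The other tools called Fgf21 higher on Western diet, with an adjusted p of 0.00622 in the edgeR quasi-likelihood test, 0.000101 in the edgeR exact test and 2.89e-06 in DESeq2.

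**Figure D2:**
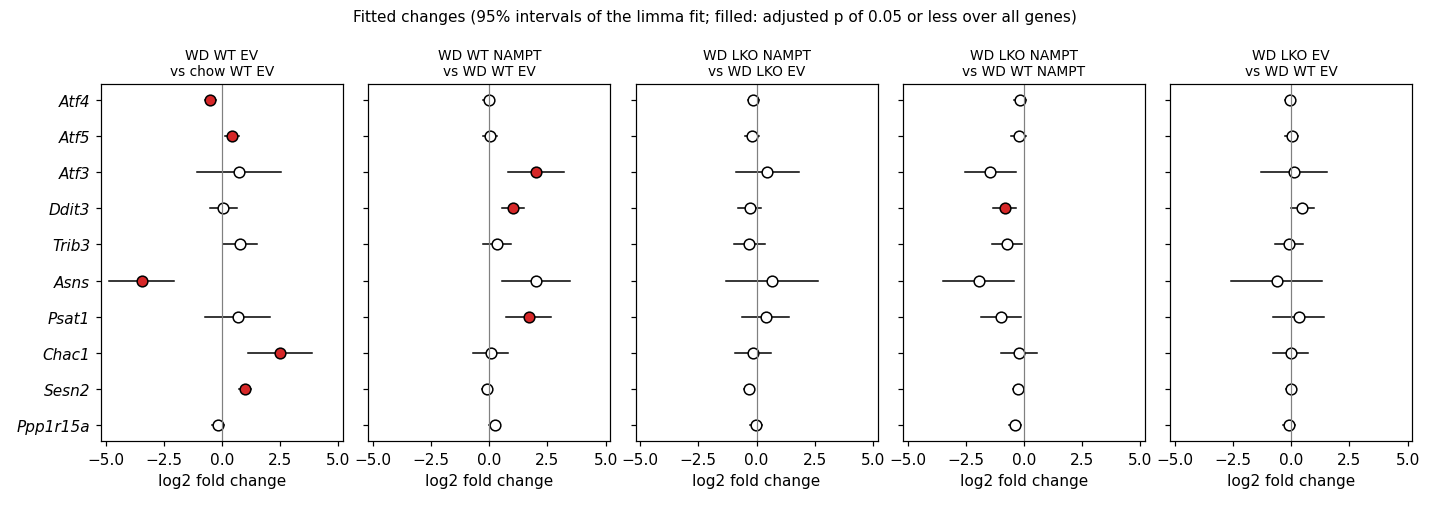
Log2 fold change of each member in 5 comparisons (x axis), with 95% intervals of the limma fit; filled points have an adjusted p of 0.05 or less over all genes. Filled points stand in the diet comparison (Asns, Atf4, Chac1, Sesn2, Atf5), in NAMPT against EV in WT (Atf3, Ddit3, Psat1) and once in LKO NAMPT against WT NAMPT (Ddit3).

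The second question was what NAMPT did to these genes in WT mice on Western diet. Atf3, Ddit3 and Psat1 were higher in WT NAMPT than in WT EV, and 0 members were lower. Of all genes tested, 13.4% were called and 7.67% were called higher. An unadjusted p under 0.05 was found for 4 members, against 30.3% of all genes. Both groups overlapped for each of the 10 members, against 0.96% of all genes whose libraries did not overlap.

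Atf3, a factor induced by many stresses, was 19, 33.1, 11.4, 8.96, 3.39 and 0.431 CPM in WT NAMPT replicates 1 to 6. In WT EV it was 0.647 to 4.64 CPM (median 1.98), so 4 NAMPT mice stood above every EV mouse and 1 stood below every EV mouse. The log2 change was 2.02 ± 0.58 (SE), 4.06-fold, adjusted p 0.0258 in limma. Atf3 varied 76.7-fold within the NAMPT group, the widest range of any member in any group.

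Ddit3 was 7.14, 14.6, 8.82, 6.16, 5.48 and 3.88 CPM in WT NAMPT replicates 1 to 6, and 2.34 to 5.86 CPM (median 3.37) in WT EV. Again 4 NAMPT mice were above every EV mouse, and the other 2 were inside the EV range. The log2 change was 1.01 ± 0.23 (SE), 2.01-fold, adjusted p 0.0125 in limma.

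Psat1 was 6.61, 10.8, 2.17, 1.48, 1.68 and 0.485 CPM in WT NAMPT replicates 1 to 6, and 0.412 to 1.46 CPM (median 0.594) in WT EV. Here 5 NAMPT mice were above the highest EV mouse, one of them narrowly. The log2 change was 1.69 ± 0.47 (SE), 3.23-fold, adjusted p 0.0217 in limma.

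Asns had a change of the same size that missed the threshold in limma. It was 5.58, 6.32, 1.80, 1.64, 0.224 and 0.539 CPM in the same mice, and 4 of them exceeded every WT EV mouse. The log2 change was 2.01 ± 0.71 (SE), adjusted p 0.0608 in limma, while the edgeR quasi-likelihood test (0.0419), the exact test (0.00779) and DESeq2 (0.00255) called it. In the same liver samples Trib3 was 18.8, 39.1, 10.9, 10.2, 6.34 and 7.0 CPM, with only replicates 1 and 2 above the highest WT EV value of 13.5 CPM (log2 change 0.33 ± 0.29, SE, adjusted p 0.456 in limma).

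Atf4 itself did not pass the test. It was 67.1 to 83.0 CPM (median 74.1) with NAMPT and 68.7 to 84.3 CPM with EV, and the 95% interval of the log2 change ran from -0.26 to 0.22. The interval was similar for Atf5 (-0.26 to 0.34) and Sesn2 (-0.32 to 0.13). Chac1 had an interval from -0.69 to 0.80, with 9.09, 8.63 and 8.79 CPM in replicates 1 to 3 and 2.92, 1.42 and 2.48 CPM in replicates 4 to 6. The first 3 of these mice were above every WT EV mouse and the last 3 below every one (3.32 to 8.22 CPM). Ppp1r15a was at 11 ± 2.73 CPM (SD, n = 6) with NAMPT and 8.98 ± 0.75 CPM (SD, n = 6) with EV, adjusted p 0.192 in limma.

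**Figure D3:**
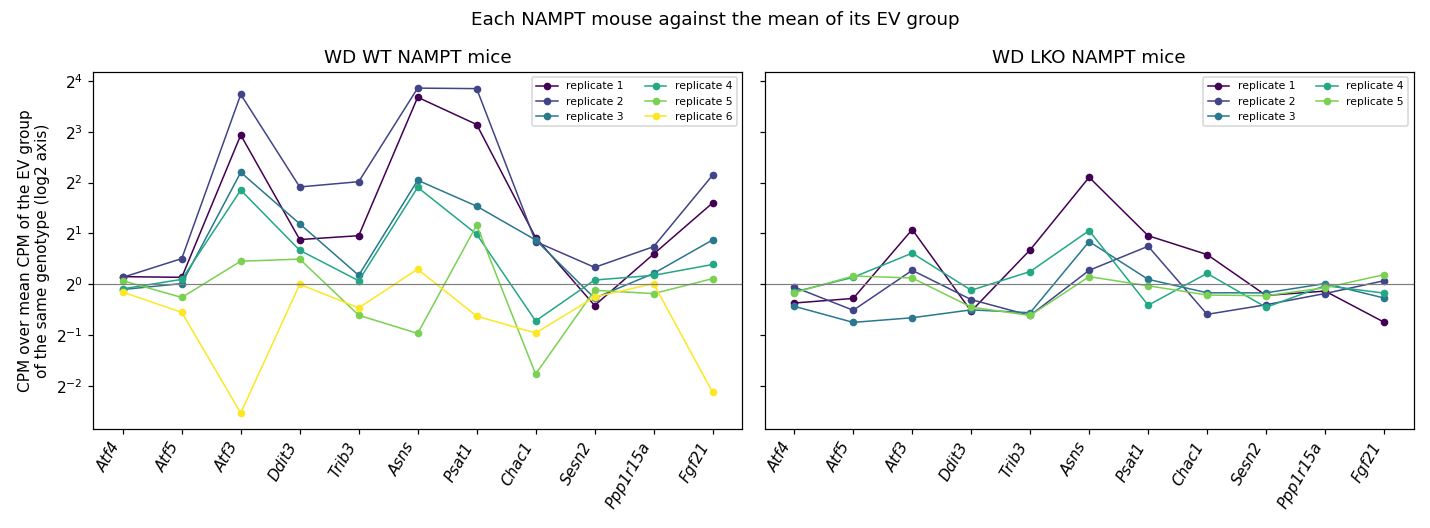
CPM of each member and of Fgf21 in each NAMPT mouse, divided by the mean of the EV mice of the same genotype (log2 axis; 1 line per mouse; the grey line marks no difference). In WT the line of replicate 2 lies above the EV mean for 10 of 10 members and that of replicate 6 for 2, whereas the LKO lines lie closer together.

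Several members were high or low in the same NAMPT mice. Replicate 2 had the highest value of the group in 8 of 10 members and replicate 1 in the other 2. Replicate 2 exceeded every WT EV mouse in 9 members, replicate 1 in 7, replicate 3 in 6, replicate 4 in 4, replicate 5 in 1 and replicate 6 in 0. Relative to the EV mean, the median member was 2.78-fold in replicate 2 and 0.782-fold in replicate 6. Atf4 and Sesn2 were ordered differently, with Sesn2 lowest of the group in replicate 1 (9.85 CPM) and Atf4 higher in replicate 5 (78.1 CPM) than in replicate 3 (69.5 CPM). Replicates 1, 2 and 6 also had the lowest quality weights of the group in the limma fit, at 0.506, 0.401 and 0.336 against 0.922 to 1.85 in the other 3, and replicate 2 had a TMM factor of 1.29. In a limma fit without these weights 0 of the 10 members were called, with adjusted p of 0.14 for Atf3, 0.0564 for Ddit3 and 0.082 for Psat1 and log2 changes of 2.04, 1.04 and 2.04. Fgf21 ranked the mice in the same order as Atf3, at 18.4, 26.9, 11.1, 7.95, 6.56 and 1.4 CPM in replicates 1 to 6, and its adjusted p was 0.0647 in limma (log2 change 1.44 ± 0.52, SE), 0.277 and 0.292 in the edgeR tests and 0.309 in DESeq2. All of these are 6 mice of 1 label, so the order of replicates carries no meaning of its own.

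Markers of other liver cells were also uneven in these mice. The summed CPM of 8 Kupffer cell and macrophage markers was 769, 815, 815, 574, 463 and 263 in WT NAMPT replicates 1 to 6, and ran from 275 to 408 in WT EV. Of the 8 markers, 5 were called higher with NAMPT in limma (Adgre1, Cd68, Csf1r, Cd5l and Trem2), as were 4 of 7 stellate cell markers (Des, Col1a1, Col3a1 and Pdgfrb) and 2 of 4 neutrophil markers kept (S100a9 and Csf3r). Of 6 endothelial markers Pecam1 was called higher and Clec4g lower. The sum over 7 neutrophil markers ran from 3.77 to 28.6 CPM with NAMPT and from 2.89 to 8.20 CPM with EV, in which Ly6g was at 0, and over 7 stellate cell markers from 295 to 726 and from 290 to 481 CPM. The 6 hepatocyte markers ran from 44200 to 62700 CPM with NAMPT and from 50300 to 66600 with EV. Atf3 can be expressed in macrophages and stellate cells as well as in hepatocytes, and the part of these cells in the result was not tested. Clock genes differed between the same groups too, with 4 of 12 called lower in limma (Arntl, Clock, Npas2 and Nfil3) and 3 in each of the other tools. Arntl was at 12.1 ± 4.76 CPM with EV and 3.47 ± 1.94 CPM with NAMPT (SD, n = 6 each). The clock score had a median of -0.28 with EV and 0.52 with NAMPT, and over the 25 libraries its r with deviations of the members was -0.60 for Atf4 and Atf5, -0.56 for Atf3 and -0.45 for Ddit3, with the other 6 members between -0.40 (Sesn2) and 0.06 (Trib3) and Psat1 at -0.38 (n = 25, a description). With the score as a covariate Atf3, Ddit3 and Psat1 were called, at adjusted p of 0.00341, 0.00375 and 0.0091 in limma.

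**Figure D4:**
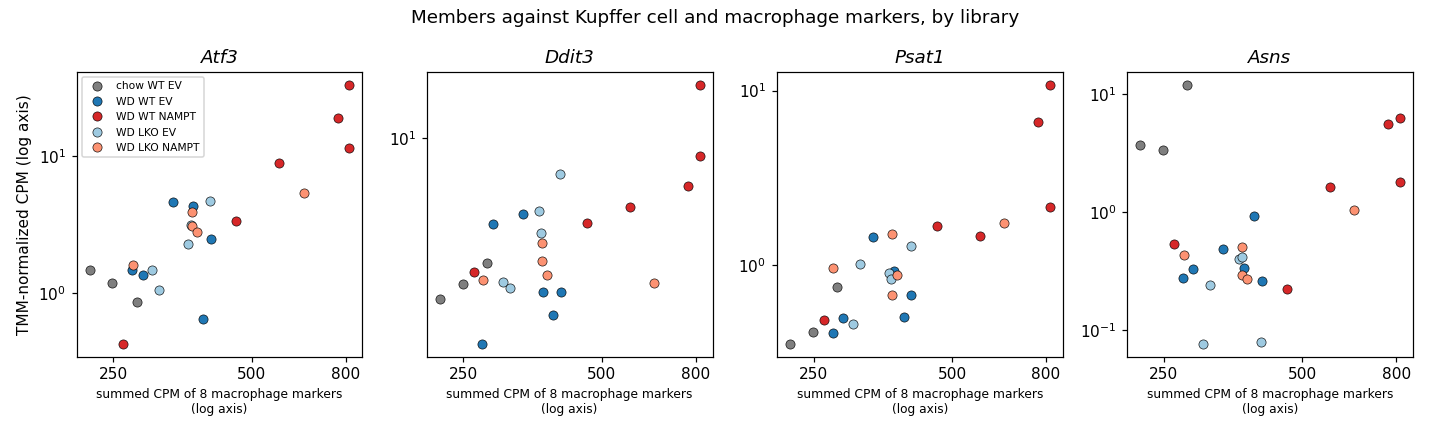
CPM of Atf3, Ddit3, Psat1 and Asns (y axis, log) against the summed CPM of 8 Kupffer cell and macrophage markers (x axis, log), 1 point per library, colored by group. WD WT NAMPT libraries (red) extend to the upper right for each of the 4 genes, and chow libraries (grey) stand apart for Asns.

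As a description over the 25 libraries, deviations of log2 CPM from the group means were correlated with the macrophage marker sum at r = 0.80 for Atf3, 0.72 for Psat1, 0.67 for Asns, 0.53 for Ddit3 and 0.20 for Atf4 (Pearson, n = 25). The macrophage sum did not stand apart from other marker sums in this respect. Atf3 was at r = 0.82 with the neutrophil and 0.82 with the stellate cell markers, Psat1 at 0.71 and 0.73, and Asns at 0.70 and 0.52, and Asns was at 0.68 with the lymphocyte markers (n = 25). The plot of members against macrophage markers shows the 6 WT NAMPT mice over most of that range. The libraries share depth and tissue composition, and these values carry no test.

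The calls with NAMPT also depended on single livers. Leaving out WT NAMPT replicate 3 gave 0 called members, and so did leaving out WT EV replicate 2, with the adjusted p in limma at 0.0947 and 0.0877 for Atf3, 0.0674 and 0.0574 for Ddit3, and 0.0728 and 0.0836 for Psat1. Without WT EV replicate 6 only Ddit3 was called (Atf3 0.0695, Psat1 0.0644), and without WT NAMPT replicate 2 Atf3 was lost (0.0624). Leaving out WT NAMPT replicate 5 gave 5 calls. Without both replicates 1 and 2 of WT NAMPT, an exclusion chosen after their values were seen, 0 members were called and the log2 changes were 1.46 for Atf3, 0.82 for Ddit3 and 1.2 for Psat1. With 2 surrogate variables in the fit the log2 changes were 0.35 for Atf3, 0.38 for Ddit3 and 0.39 for Psat1, and 0 members were called.

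Of the 77 other genes kept from the 7 lists, 5 were higher and 3 lower with NAMPT in WT mice, which is 10.4% against 13.4% of all genes, with a median log2 change of 0.07. Of the 77, the edgeR quasi-likelihood test called 2, the exact test 5 and DESeq2 7. In amino acid synthesis, 2 of 11 rose: Mthfd2, of mitochondrial folate metabolism, went from 1.35 ± 0.55 to 3.47 ± 2.02 CPM (SD, n = 6 each), and Aldh18a1, of proline synthesis, from 2.71 ± 0.67 to 5.10 ± 2.66 CPM (SD, n = 6 each), while Shmt1 fell by 0.54 on the log2 scale. The stress regulator Nupr1 rose from 1.02 ± 0.65 to 3.61 ± 3.31 CPM (SD, n = 6 each), 1 of 11 in its list. The glutamine transporter gene Slc1a5 rose, 1 of 9. Vars rose and Xpot fell among 14 genes for tRNA charging and export, and Eif2b5, a subunit of the exchange factor for eIF2, fell by 0.32 on the log2 scale, 1 of 16, in limma, where edgeR and DESeq2 called 0. Of 13 genes of the ATF6 and XBP1 arms, 0 were called in limma, with 1 at an unadjusted p under 0.05, and 0 were called by edgeR or DESeq2. Of 12 immediate early genes, 3 rose in limma (Junb, Btg2 and Ier3), while the 2 edgeR tests called 1 each and DESeq2 called 2.

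In mice labelled LKO, 0 of 10 members were called between NAMPT and EV, against 0.00711% of all genes. Both edgeR tests (quasi-likelihood and exact) and DESeq2 also called 0, and 1 member had an unadjusted p under 0.05 in limma, against 9.63% of all genes. That member was Sesn2, at 11.2, 9.90, 11.6, 9.56 and 11.2 CPM with NAMPT and 13.4, 16.3, 12.3, 12.6 and 10.7 CPM with EV (log2 change -0.32 ± 0.11, SE, adjusted p 0.35 in limma). Only the lowest EV mouse was inside the range of the NAMPT mice.

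The genes that rose in WT had small or wide changes here. Atf3 was 5.37, 3.09, 1.61, 3.89 and 2.78 CPM with NAMPT and 4.75, 2.31, 3.14, 1.47 and 1.06 CPM with EV. Its log2 change of 0.46 had a 95% interval from -0.88 to 1.81. Ddit3 was 3.59, 4.21, 3.66, 4.78 and 3.80 CPM with NAMPT and 7.77, 5.97, 5.10, 3.63 and 3.46 CPM with EV, so the 3 highest mice were EV mice, and the interval of the log2 change ran from -0.79 to 0.21. Psat1 had an interval from -0.62 to 1.41 and Asns from -1.31 to 2.66. For Asns 8 to 30 counts per library were available with NAMPT and 2 to 14 with EV. In the LKO NAMPT group replicate 1 had the highest value of 5 members, and it also had the highest macrophage marker sum of that group (649 CPM, against 276 to 380 in the other 4). Fgf21 was lowest in that mouse, at 4.33 CPM against 6.02 to 8.24 CPM in the other 4. It thus did not follow the order of Atf3 in this group. The log2 change of Fgf21 with NAMPT in LKO was 0.02 (adjusted p 0.992 in limma).

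LKO NAMPT and WT NAMPT mice were then compared directly. Ddit3 was lower in LKO NAMPT by 0.83 ± 0.23 (SE) on the log2 scale, at 4.01 ± 0.49 CPM (SD, n = 5) against 7.68 ± 3.77 CPM (SD, n = 6), with an adjusted p of 0.0337 in limma. It was the 1 member called of 10, where 7.96% of all genes were called and 3.78% were called lower, and both groups overlapped (3.59 to 4.78 and 3.88 to 14.6 CPM). All 10 members had a negative log2 change, except that with 2 surrogate variables Atf5 and Chac1 had a positive one, and 7 had an unadjusted p under 0.05, against 28.6% of all genes. Of all 14065 genes, 6920 had a positive log2 change. After adjustment Ppp1r15a (-0.38 ± 0.13, SE, adjusted p 0.0567 in limma), Atf3 (-1.45 ± 0.54, SE, adjusted p 0.082 in limma) and Asns (-1.95 ± 0.74, SE, adjusted p 0.0872 in limma) stayed above the threshold. Asns was called by the edgeR exact test (0.0448) and DESeq2 (0.0158), Psat1 by DESeq2 (0.0435), and 0 members were called by the quasi-likelihood test. These values use the same 6 WT NAMPT mice as the comparison with WT EV and are no second measurement of them. The Ddit3 call was lost in 7 of 11 alternative fits to the same libraries, among them both edgeR tests (adjusted p 0.119 and 0.0687), while DESeq2 made it (0.0448). It was also lost in 6 of 11 fits that left out 1 mouse: without WT NAMPT replicate 1 (adjusted p 0.0513 in limma), 2 (0.075) or 3 (0.118), or without LKO NAMPT replicate 2 (0.188), 3 (0.0693) or 5 (0.144). Leaving out WT NAMPT replicate 5 or 6 gave 5 and 4 called members, and leaving out LKO NAMPT replicate 1 or 4 gave 2 each, Ddit3 and Ppp1r15a.

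Among other genes of the response in that comparison, 5 of 77 were lower and 1 higher, which is 7.79% against 7.96% of all genes. Mthfd2 (log2 change -1.34 ± 0.36, SE) and Aldh18a1 (-1.07 ± 0.26, SE) were lower in LKO NAMPT, as were Lars, Vars and the kinase gene Eif2ak4, whose product GCN2 senses uncharged tRNA, and Eif2s3x was higher. These are calls of limma. Among the 77 genes the edgeR quasi-likelihood test called 0, the exact test 1 and DESeq2 2, and each of the 3 called 0 in the lists that hold Lars, Vars, Eif2ak4 and Eif2s3x. Of the 8 macrophage markers 1, Csf1r, was called lower in limma and 0 by edgeR or DESeq2, and the sums overlapped, at 276 to 649 CPM in LKO NAMPT and 263 to 815 in WT NAMPT. Also called lower in limma were 1 of 4 neutrophil markers (Csf3r), 1 of 7 stellate cell markers (Pdgfrb), 1 of 5 cholangiocyte markers (Sox9) and 1 of 12 immediate early genes (Ier3). Their part in the Ddit3 difference was not tested.

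The difference between the NAMPT effects in LKO and in WT was tested as an interaction. It was negative for all 10 members (for 8 with 2 surrogate variables, without Atf5 and Chac1), and 0 were called in limma (0.00711% of all genes were called), with 0 also in the edgeR quasi-likelihood test and DESeq2. Of all 14065 genes, 6856 had a positive difference. The signs of the members rest on the same WT NAMPT mice, in which several members varied together, so they are not 10 separate observations. Ddit3 was the 1 member with an unadjusted p under 0.05 (log2 difference -1.30 ± 0.34, SE, 95% interval -1.99 to -0.60, unadjusted p 0.000739, adjusted p 0.0745 in limma), against 21.2% of all genes. Its 4 group means were 3.88 CPM in WT EV, 7.68 in WT NAMPT, 5.19 in LKO EV and 4.01 in LKO NAMPT. For Atf3 the difference was -1.56 ± 0.88 (SE) and for Psat1 -1.30 ± 0.68 (SE), with adjusted p of 0.304 and 0.268 in limma. Outside the set, Fgf21 had a difference of -1.41 (adjusted p 0.247 in limma). Its log2 change between LKO NAMPT and WT NAMPT was -0.46 (adjusted p 0.528 in limma). Ddit3 passed the threshold in 3 of the 22 fits that left out 1 mouse: without WT NAMPT replicate 5 (0.0357) or 6 (0.0341), or without LKO NAMPT replicate 1 (0.0397).

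The genotype labels were also compared without NAMPT. Between LKO EV and WT EV on Western diet 0 of 10 members were called (0.00711% of all genes), 0 had an unadjusted p under 0.05 in limma (6.33% of all genes), and the edgeR tests and DESeq2 called 0. The closest was Ddit3, with a log2 change of 0.47 and a 95% interval from -0.03 to 0.97. The narrowest intervals were those of Sesn2 (-0.24 to 0.20) and Atf4 (-0.29 to 0.18), and the widest that of Asns (-2.57 to 1.33).

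**Figure D5:**
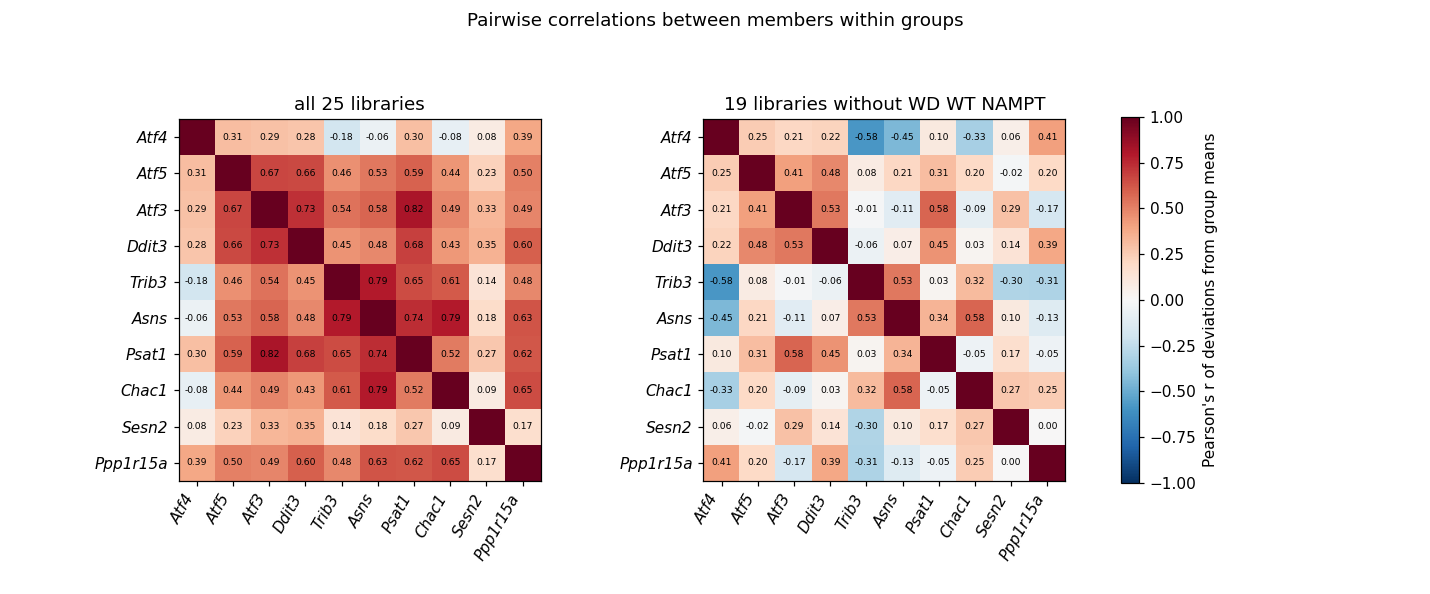
Pearson's r between members (color, -1 to 1) of deviations of log2 CPM from the group means, over all 25 libraries (left) and over the 19 libraries outside WD WT NAMPT (right). The block of high r among Atf3, Ddit3, Trib3, Asns, Psat1 and Chac1 on the left is paler on the right.

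The maps of pairwise correlation describe how members varied between mice of 1 group. Over the 25 libraries 20 of 45 pairs had r of 0.5 or more, the highest being Atf3 with Psat1 (0.82), Trib3 with Asns (0.79) and Asns with Chac1 (0.79). Atf4 was in 0 of those pairs, and its r with the other 9 members ran from -0.18 to 0.39. Without the 6 WT NAMPT libraries (n = 19) 4 pairs had r of 0.5 or more: Atf3 with Psat1 (0.58), Asns with Chac1 (0.58), Atf3 with Ddit3 (0.53) and Trib3 with Asns (0.53). The 2 groups of members that these pairs join are a pair of factors with Psat1, and the 3 genes Trib3, Asns and Chac1, whose windows each hold a CARE. Atf3 also holds one and was at r = -0.11 with Asns in those 19 libraries. All libraries share their depth scaling, so these values are descriptions.

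Outside the set, the genes most like each member in the same measure were found among 12825 genes. Ets2 (r = 0.95) and Emp1 (0.94) were closest to Atf3, Cenpe (0.92) and Tpx2 (0.90), both genes of the mitotic spindle, to Psat1, and Sqstm1 (0.87), which encodes an autophagy receptor, and Tubb5 (0.87) to Atf5. Ctsl, a lysosomal protease gene, was closest to Asns (0.86) and Mxra7 to Ddit3 (0.85). For Atf4 and Sesn2 no gene exceeded 0.74 and 0.73. These values were picked as the highest among all genes compared, and they carry no test. Without the WT NAMPT libraries (n = 19), r with Psat1 was 0.64 for Cenpe and 0.63 for Tpx2. In those libraries Ets2 and Emp1 were at 0.90 and 0.85 with Atf3, and Sqstm1 and Tubb5 at 0.83 and 0.88 with Atf5. Ctsl was at 0.76 with Asns there, and Mxra7 at 0.85 with Ddit3.

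Counts of some members can miss reads in bases shared with other genes, because a read that also matched another gene was not counted. For bases shared with genes on the other strand, this holds only if counting ignored the strand. The sources used here do not state whether counting used the strand. Atf5 (chromosome 7, 44812257 to 44816658) shares 82 exonic bases with genes on the other strand. Ddit3 (chromosome 10, 127290774 to 127296288) shares 68 with Mars and 13 with Gm4189 there, and 105 with a second Ddit3 model on its own strand. Ppp1r15a (chromosome 7, 45522916 to 45526268) shares 12 with Tulp2, and the other 7 members share none.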

How the data were processed

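Liver poly-A RNA of 25 mice was sequenced as single reads. The authors aligned reads to GRCm38 with STAR (2.5.1a per the submitters' processing notes) and used featureCounts (1.4.6-p5) to count the reads that had 1 alignment and 1 matching gene. Each deposited file gives raw counts for every gene, next to CPM and RPKM columns made by the authors. Recomputed CPM and RPKM deviated by at most 5.9e-14 (relative), and only the counts were used further. Symbols were joined for 40254 of 41388 identifiers.

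Groups and replicate numbers were taken from the sample titles. The labels' treatment text names SIRT1 as the insert of the virus. The titles say NAMPT, and groups rest on the titles. No batch is given. Libraries are separate mice, and no library copied another of its group (smallest chi-square per degree of freedom 15.6).

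Genes with more than 1 CPM in at least 2 libraries were kept, without ribosomal RNA genes (14065 genes). As in the study, counts were scaled by TMM (edgeR 4.0.16) and fitted with voomWithQualityWeights (limma 3.58.1, R 4.3.3), with 1 mean per group and no covariate. Adjusted p-values are Benjamini-Hochberg over all genes tested. Alternatives were the edgeR quasi-likelihood and exact tests, DESeq2 1.42.0, no quality weights, other scalings, no filter, only the groups compared, a replicate block, 2 surrogate variables (sva 3.50.0), a clock-gene score as covariate, and fits without single libraries. On simulated counts with 200 of 14065 genes changed 2-fold between WD WT NAMPT and WD WT EV, 158 genes were called. Of the changed genes 73% were recovered, and 12 of the calls were false. The counts were drawn for each gene separately, without variation shared by the genes of a mouse. The simulation therefore cannot say how the fit behaves where real libraries share such variation. The members and the gene lists were chosen with earlier results of these data known. Named genes outside the set are up to 4 called genes of each list with the largest change and an average log2 CPM of at least 0, Fgf21, Sirt1, Nampt, and the 2 genes most like each member. Alb and the other cell type markers given by name fall outside this rule and were chosen after their values were seen. Correlations used log2(CPM + 0.5). Intervals for CPM values cover the spread between mice. Promoter sequences are those of RefSeq on GRCm38.p6, the build of the files.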

Additional observations from a re-analysis of the deposited data

Results flagged for a closer look

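In WD WT EV, replicate 8 stood far from the other 5 mice in 2 members. Asns was 0.924 CPM there, and the next highest mouse had 0.488 CPM. Chac1 was 8.22 CPM there, and the next highest mouse had 4.72 CPM. The gap to the nearest mouse was 0.661 of the range of the group for Asns and 0.715 for Chac1, above the 95% limit of Dixon's test for 6 samples. In the same mouse Fgf21 and Atf3 were the lowest of the group, at 0.370 and 0.647 CPM. A total of 40 pairs of gene and group were examined, and chance marks about 1 in 20 of them.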

How the results depend on the processing

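For members with an unadjusted p under 0.05 in a comparison, no direction reversed under the alternatives run. For NAMPT against EV in WT, the number of called members was 3 as reported, 0 without quality weights, 1 without the filter on low counts, 1 with only the groups compared in the fit, 0 with 2 surrogate variables (log2 changes of 0.35 for Atf3, 0.38 for Ddit3 and 0.39 for Psat1), 0 without WD WT NAMPT replicates 1 and 2 together (added after the data were seen), and 0 to 5 when single libraries were left out. Between LKO NAMPT and WT NAMPT the number was 1 as reported, 0 in the edgeR quasi-likelihood test, 3 in DESeq2, 0 without quality weights, 2 with upper-quartile factors, 2 with library size alone, 0 without the filter, 0 with only those groups, 0 with surrogate variables, 3 with the clock score, 0 without WD WT NAMPT replicates 1 and 2 together, and 0 to 5 without single libraries. For Western diet against chow it was 5, with 4 (without Atf5) in both edgeR tests and DESeq2, 2 (Asns and Sesn2) without quality weights and 2 to 5 without single libraries. For the interaction it was 0, with 1 under the clock score and 0 to 1 without single libraries. In both comparisons of LKO EV it was 0 under each alternative. Asns passed with NAMPT in WT under the edgeR quasi-likelihood test (adjusted p 0.0419), the edgeR exact test (0.00779) and DESeq2 (0.00255). Over all genes, 1890 were called with NAMPT in WT by the reported fit, 428 by the quasi-likelihood test, 192 without quality weights and 68 with surrogate variables. Library size alone moved the median log2 change of all genes by 0.16 in that comparison.

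The replicate numbers name different mice and did not pair the samples: correlations of same-numbered mice ran from -0.23 to 0.44 over 4 pairs in WT. With the replicate block 3 members were called with NAMPT in WT, 0 in LKO, 1 (Atf3) between LKO NAMPT and WT NAMPT, 0 between LKO EV and WT EV, 6 for the diet, and 0 for the interaction. Depth limits Asns most, with down to 2 counts in a library, and Psat1, Atf3 and Chac1 had down to 8.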
